A study of Capra hircus with 2 samples.

Results

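The tags described here are small RNA sequences from libraries of the goat mammary gland that were read at peak lactation and never in the dry period. A tag is a distinct sequence of clean reads, and its count is the number of reads with exactly that sequence. The tags were chosen by their read counts in both libraries. A tag was taken when it had 10 or more reads in the peak lactation library and 0 reads in the dry period library, which gave 5182 of the 1692810 distinct tags of both libraries. The comparison set was built the other way round, from tags with 10 or more reads in the dry period library and 0 at peak lactation, and held 445 tags. The tissue was mammary gland of Xinong Saanen dairy goats, with RNA of 3 goats pooled at each stage and 1 library made per stage. Each library was given the stage in its title. The labels place the dry period at 75 and peak lactation at 320 days after lambing. The published methods pair the stages and days in the opposite order, so the days are not relied on here. The libraries held 15712891 clean reads at peak lactation and 14851375 in the dry period. With 1 library per stage no spread between animals could be measured and no test was run. All intervals cover counting error only. No tag was matched to a goat genome here, so whether a given tag is goat RNA was not tested.

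MicroRNAs (miRNAs) are cut from hairpin precursors by Drosha and Dicer and have narrowly set ends, with a fixed 5′ end that carries the seed. Other small RNAs are pieces of longer transcripts, such as ribosomal RNA, transfer RNA or messenger RNA, and the ends of such pieces lie at many positions. An exact sequence can therefore be missing from a library while the RNA it comes from is present. The lactating gland makes milk protein messenger RNAs in very large amounts, and the dry gland rebuilds its tissue between lactations. In pooled tissue, fewer cells of a type and less RNA per cell cannot be told apart.

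The peak lactation tags with the most reads are printed first, because they show what the set is made of. Lower case marks the longest stretch of at least 18 nt that also occurs inside a dry period tag, and capitals mark bases outside it. Where several stretches were equally long, the first found is marked.
Peak tag 1: Aagggttccatgtgaacagcagttgaaca
Peak tag 2: tctcggggagaaccgcaggaacgccgagcG
Peak tag 3: tgctaaaccattcgtagacgacctgcttc
Peak tag 4: cgggttcgtttcccggtcggGGAACCA
Peak tag 5: cggaacgatacggcagcgccgcgggag
Peak tag 6: tggacgcgagccgggcccttcccgtggat
Peak tag 7: ccgccgtcggcgggcgcgcggcgcg
Peak tag 9: cggcgcaagacggaccagagcgaaagcat
Peak tag 10: Taaggcgagctcagggaggacagaaacct

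Peak tag 1 had 685 reads at peak lactation, or 43.6 RPM (its reads times 1000000 over the clean reads of the library). Against a floor of 3 reads in the dry period library it was at least 216-fold higher. Its last 28 bases lay inside 2 dry period tags with 71 reads, so the sequence without its first base was present there. Peak tag 2 had 512 reads (32.6 RPM), and all of it but the last base lay inside dry period tags with 160 reads. Peak tag 3 (495 reads) lay whole inside a longer dry period tag with 1 read. For peak tag 3, 1179 dry period tags with 74817 reads shared at least 18 nt with it. Peak tags 5 to 9 had 290 to 192 reads and lay whole inside dry period tags with 1 to 20 reads. Peak tag 10 (192 reads) had a single base outside. Peak tag 8, a 31-nt tag with 219 reads, is not printed.

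Peak tag 4 was the exception among these 10. It had 417 reads and ended in CCA, the tail that is added to transfer RNA, and 7 of its 27 bases lay outside the longest dry period stretch. Only 20 dry period tags with 78 reads shared 18 nt with it. A common tag with 672 reads at peak lactation and 15 in the dry period differed from peak tag 4 by A19G, with the base of the common tag first and positions counted from 1 at the 5′ end. Tags of 23, 22 and 24 nt with the same sequence but for the ends carried the same A19G change against common tags of their own, with 183, 174 and 146 reads at peak lactation and 0 in the dry period. These tags and peak tag 4 belong to family 7, a set of 38 tags with 2043 reads joined by shared 18-nt stretches. All reads sharing 18 nt with this family numbered 6097 at peak lactation and 711 in the dry period, a ratio of 8.11 in RPM. This sum holds tags chosen for their absence, and on common tags alone the reads were 3291 and 666 and the ratio 4.67.

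The sequences of the dry period tags with the most reads are shown for contrast, with capitals marking bases outside the longest stretch found in a peak lactation tag.
Dry tag 1: aaaaaaccgagtgaactttttgA
Dry tag 2: cgacttagaaccggtgcgga
Dry tag 3: tgaggtactaggttgtgtggtt
Dry tag 4: ccgacttagaaccggtgc
Dry tag 5: tgaggtagtatgttgtgtggttt

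These 5 tags had 124, 91, 71, 63 and 58 reads. Dry tags 3 and 5 differed from common tags of let-7b, a miRNA that restrains proliferation, by G8C and G11T. At peak lactation these common tags had 17393 and 9868 reads, against 239403 and 122400 in the dry period. Dry tags 2 and 4 overlap each other and differed by T12C and T13C from common tags. The common tag of dry tag 2 had 18811 reads at peak lactation and 6284 in the dry period. Dry tags 2 and 4 lay whole inside 27 and 39 longer peak lactation tags with 83 and 104 reads. Dry tags 3 and 5 lay whole inside peak lactation tags with 14 and 1 reads. These changed bases were thus read at peak lactation too, with other ends.

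Tags with 10 or more reads at peak lactation numbered 63128, and 8.21% of them were absent from the dry period library. Of 38563 such tags of the dry period library, 1.15% were absent at peak lactation. These shares are fixed by the rule that chose the tags and are given as a description. The 5182 peak lactation tags held 112272 reads, which were 0.715% of the clean reads (Wilson 95% interval 0.710 to 0.719%). The 445 dry period tags held 6994 reads, or 0.0471% (Wilson 95% interval 0.0460 to 0.0482%). Most peak lactation tags were rare, with a median of 15 reads and 63 tags at 100 or more. A tag with 10 reads was at least 3.15-fold higher than the dry period floor of 3 reads (0.202 RPM), and a tag with 15 reads at least 4.73-fold. At the edge of the rule, 776 tags had exactly 10 reads, and 967 tags with 9 reads were left out. A further 4102 tags had 10 or more reads at peak lactation and a single read in the dry period, and 3601 had 2.

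The peak lactation tags were long. Their median length was 26 nt, against 22 nt for the dry period tags and 22 nt for the common tags with 10 or more reads at peak lactation. Of the peak lactation tags, 3929 (75.8%) had 24 nt or more, compared with 18.7% of the dry period tags and 35.7% of the common tags. The most frequent length was 28 nt, with 935 tags. Among the dry period tags 23 nt was most frequent, with 100 tags, and none was longer than 26 nt. Lengths of 21 to 23 nt, the miRNA range, took 14.8% of the peak lactation tags and 61.3% of the dry period tags.

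**Figure D1:**
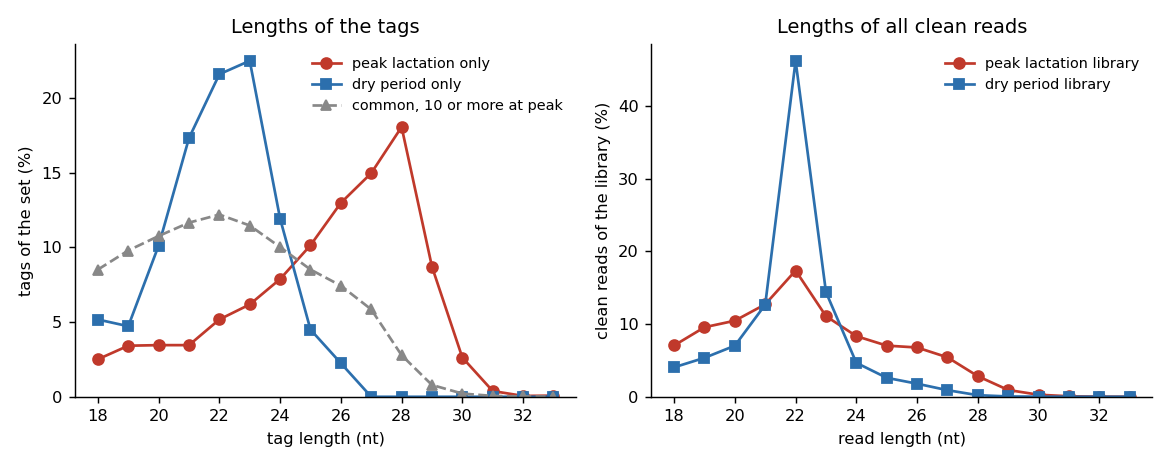
The left panel plots the percent of tags of each length (nt) for the 5182 tags of peak lactation only, the 445 tags of the dry period only and the 57946 common tags with 10 or more reads at peak lactation. The right panel plots the percent of all clean reads of each length in the 2 libraries. Peak lactation tags crest at 28 nt and dry period tags at 23 nt, and 22-nt reads are 17.4% of the peak lactation library and 46.2% of the dry period library.

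The whole libraries differed in length in the same direction. Reads of 24 nt or more were 31.7% of the peak lactation library and 10.3% of the dry period library. The part of this difference in the absence of long tags was not tested, but absence could be read within each length. Among tags of 18 to 23 nt with 10 or more reads, 3.25% of those at peak lactation (1253 of 38530) and 1.26% of those in the dry period (362 of 28830) were absent from the other library. Among tags of 24 to 33 nt the shares were 16% (3929 of 24598) and 0.853% (83 of 9733). At 22 nt, 3.66% of the peak lactation tags were absent from the dry period library, at 26 nt 13.5%, and at 28 nt 36.7%. At 29 and 30 nt the shares were 49.6% and 52.3%, with 909 and 260 tags. The dry period library put 0.220% of its reads at 28 nt and 0.0451% at 29 nt, against 2.84% and 0.934% at peak lactation.

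**Figure D2:**
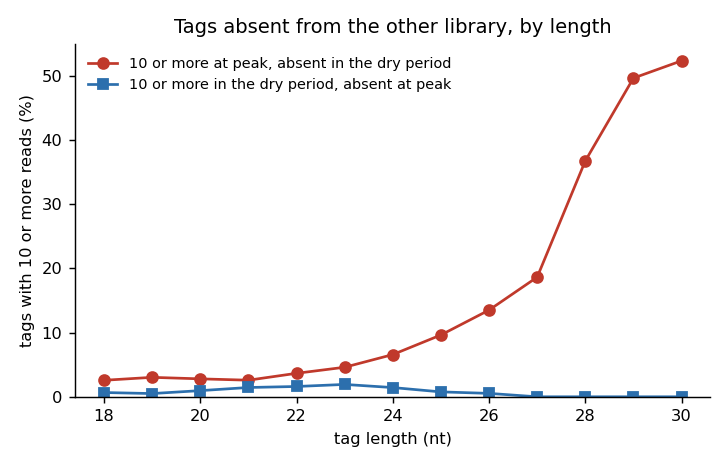
For each tag length from 18 to 30 nt (x axis), the percent of tags with 10 or more reads that were absent from the other library. The peak lactation line climbs from 2.57% at 18 nt to 52.3% at 30 nt, and the dry period line stays between 0 and 1.92%.

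The ends of the peak lactation tags differed in base from those of the dry period tags. C was the first base of 32.1% of the peak lactation tags, G of 27.3%, A of 23.1% and T of 17.4%. In the dry period tags T came first in 51.2%, A in 24.9%, G in 13.5% and C in 10.3%. T stands for U of the RNA, the usual first base of miRNAs. The common tags with 10 or more reads at peak lactation lay between these sets, with T first in 23.3% and C in 25.8%. When the common tags were given the lengths of the peak lactation tags, T was first in 21.6% and C in 26.5%. The last base was G in 30.2%, C in 25.8%, A in 25.4% and T in 18.6% of the peak lactation tags, whereas T was last in 45.8% of the dry period tags, followed by A. CCA ended 331 peak lactation tags (6.39%), 3 dry period tags (0.674%) and 5.61% of the common tags.

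**Figure D3:**
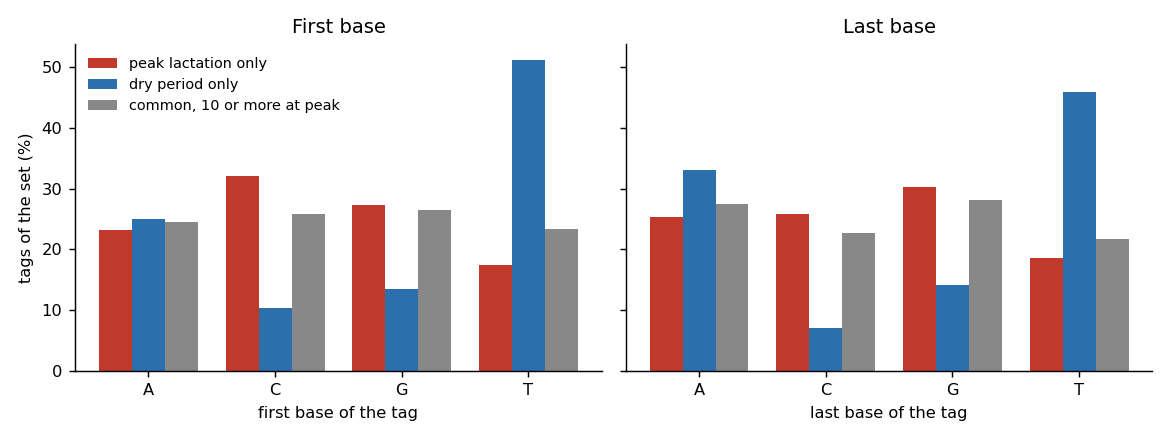
Bars give the percent of tags with each first base (left) and last base (right) in the peak lactation only, dry period only and common sets. T opens 51.2% of the dry period tags and 17.4% of the peak lactation tags, which open most often with C (32.1%).

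GC content averaged 62.4% ± 16.8 (SD over 5182 tags) in the peak lactation tags and 45.6% ± 8.90 (SD over 445 tags) in the dry period tags. The common tags averaged 57.0% ± 15.1, or 57.9% at the lengths of the peak lactation tags. Tags with a GC content of 70% or more made up 32.0% of the peak lactation tags (1660 tags), 1.35% of the dry period tags and 19.3% of the common tags. Within the peak lactation tags, those of 18 to 23 nt averaged 58.3% ± 18.9 and those of 24 to 33 nt 63.7% ± 15.9. At 18 to 23 nt the common tags averaged 57.0% ± 15.5. The dry period tags averaged 45.7% ± 9.15 at 18 to 23 nt and 44.9% ± 7.70 at 24 nt or more.

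The peak lactation tags overlapped common tags, as common tags did among themselves, but fewer of them lay whole inside a longer common tag. The peak lactation tags were also longer than the common tags (median 26 against 22 nt). This comparison was not made at matched lengths, so the part of length in it was not tested. An identical stretch of 18 nt or more was shared with a common tag by 5108 of the 5182 tags (98.6%), and with another tag of the set by 4852 (93.6%). For reference, 99.9% of the common tags with 10 or more reads at peak lactation shared such a stretch with another common tag, and 98.0% with another common tag of 10 or more reads. Each tag was placed in the first of the following relations that held. In all, 2650 tags (51.1%) lay whole inside a longer common tag. Of the tags not inside one, 2383 (46.0% of the set) contained a shorter common tag and extended it. Of the common tags with 10 or more reads at peak lactation, 92.9% lay inside another, longer common tag. A further 7.02% lay inside none but extended one. A shift along the same sequence was found for 41 tags, a shared stretch with other letters at the ends for 34, and a single substitution without a shared stretch for 19. The other 55 tags matched in none of these ways. In the dry period tags, 222 (49.9%) lay inside a common tag and 184 (41.3%) lay inside none but extended one. The shares were 93.8% and 5.74% of the common tags with 10 or more reads in the dry period.

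**Figure D4:**
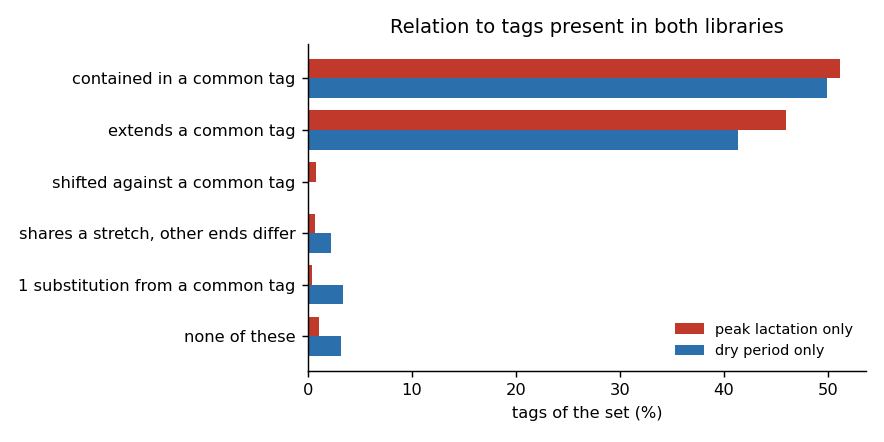
Bars give the percent of the 5182 peak lactation tags and of the 445 dry period tags in each relation to tags present in both libraries. Each tag is placed in the first relation, from the top, that held. Tags inside a common tag and tags extending a common tag make up 51.1% and 46.0% of the peak lactation tags.

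Against the dry period library itself, most tags were complete or lacked a single base. The longest stretch that a peak lactation tag shared with a dry period tag covered the whole tag in 2852 cases and all but 1 base in 1832. Together these were 90.4% of the set, and 173 tags had 3 or more bases outside. The uncovered bases lay only at the 5′ end in 1169 tags, only at the 3′ end in 1047 and at both ends in 59. The dry period tags were uneven, with 142 tags uncovered only at the 3′ end and 29 only at the 5′ end. Where several stretches were equally long, the first found was kept whatever its end. The counts by end in both sets therefore depend partly on that choice. The first 18 nt of 4712 peak lactation tags (90.9%) opened a dry period tag, and the last 18 nt of 4767 (92.0%) closed one. In the dry period tags the first 18 nt were found in this way for 406 (91.2%) and the last 18 nt for 181 (40.7%).

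The bases added to common tags differed too between the peak lactation and dry period tags. The counts of this paragraph were not made for the common tags, so no reference value stands beside them. They include tags that also lay inside a longer common tag. In the peak lactation tags the bases added at the 3′ end ranked as their last bases did above. A common tag plus 1 base at the 3′ end gave 2894 peak lactation tags, with G added in 937, C in 858, A in 623 and T in 476. In the dry period tags this held for 256, with A added in 110, T in 102, G in 27 and C in 17. One base before the 5′ end of a common tag gave 2862 peak lactation tags (55.2%) and 55 dry period tags (12.4%). A single substitution at least 3 bases from both ends separated 672 peak lactation tags (13.0%) and 213 dry period tags (47.9%) from a common tag. In 139 of these dry period tags (31.2% of the set) the common tag had at least 100 times the reads, and in 296 of the peak lactation tags (5.71%).

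Few peak lactation tags matched a miRNA. The first 18 nt or more matched the start of a listed conserved or candidate miRNA in 8 tags (0.154%) with 377 reads, against 101 dry period tags (22.7%). When the listed sequence and the tag could align at any offset, 0.714% of the peak lactation tags matched. A different rule aligned tag and listed sequence at their 5′ ends and allowed 1 mismatch over their whole shared length. By that rule the numbers were 14 tags and 222 tags (49.9%). Among the common tags, 3.68% of those with 10 or more reads at peak lactation and 8.42% of those in the dry period matched in their first 18 nt. With 1 mismatch, let-7 or miR-98 accounted for 131 dry period tags (29.4%) and for 0 peak lactation tags. By the match of the first 18 nt or more, let-7b had 22 tags with 312 reads and let-7c 7 tags with 112 reads. Single dry period tags of miR-182 and miR-34a had 32 and 30 reads.

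The 8 peak lactation tags were all longer than the listed miRNA, by 2 to 7 nt. Candidate novel_mir_66 had 3 tags with 103, 93 and 77 reads and novel_mir_15 had 2 with 32 and 28 reads. The leading tag of each is shown with the listed sequence in lower case and the added bases in capitals.
novel_mir_66 tag: cggggccgggggccgggcgcGTCC
novel_mir_15 tag: ggggggccggcggcggcggcgACTCTG

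The novel_mir_69, miR-2887 and novel_mir_13 tags had 17, 15 and 12 reads. The novel_mir_66 tag above has a GC content of 95.8% and the novel_mir_15 tag 88.9%. The whole novel_mir_66 tag lay inside dry period tags with 8 reads.

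Tags that shared 18 nt were joined into families. The peak lactation tags fell into 682 families, of which 330 were single tags and 126 had 10 or more tags. The latter held 81.5% of the reads of the set. In the dry period, 248 families were found and 187 were single tags. Through all 63128 peak lactation tags with 10 or more reads, the 682 families joined further into 532 groups. Of these groups 140 (215 tags) held no common tag with 10 or more reads at peak lactation. Common tags with fewer reads did not enter the groups. The 5 families with the most reads held 13.4% of the reads. Families 1, 4 and 5 are led by peak tags 2, 6 and 5. The leading tags of the other two are shown because each marks a further stretch of RNA, and both lay whole inside a dry period tag.
Family 2: gtccgtagcggtcctgacgtgcaaatcg
Family 3: atacccggccgtcgccggcagtcggag

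Family 1 had 139 tags with 3596 reads, which started at 79 positions and ended at 76 positions of a 149-nt stretch. Families 2, 3, 4 and 5 had 125, 119, 124 and 108 tags over 194, 125, 91 and 171 nt. Each had 45 or more starts and 46 or more ends. The RNA of these families was abundant in both libraries. All reads sharing 18 nt with family 1 numbered 283153 at peak lactation and 67590 in the dry period, or 18020 and 4551 RPM, a ratio of 3.96. For family 2 the reads were 449880 and 139974 and the ratio 3.04, and for family 4 they were 438514 and 105388 with a ratio of 3.93. Families 3 and 5 had ratios of 3.47 and 3.07. In families 1 and 2 the peak-only tags held 3596 and 3268 of these reads.

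Reads sharing 18 nt with a family were over 2-fold higher in RPM at peak lactation in 607 of 682 families (89.0%), within 2-fold in 74 and over 2-fold lower in 1. In this ratio a dry period count below 3 reads was entered as 3. The median log2 ratio was 1.90. This sum includes the tags that were chosen for their absence. With common tags alone, 464 of 647 families (71.7%) were over 2-fold higher, and the median log2 ratio was 1.36. Of all 57946 common tags with 10 or more reads at peak lactation, 65.4% were over 2-fold higher and 4.65% over 2-fold lower, with a median log2 ratio of 1.35. These ratios on common tags, of families and of single tags, were taken without a floor. On common tags alone the median family thus stood at the level of the median common tag. The same families held longer reads at peak lactation. In 341 of 353 families with at least 100 reads in both libraries the mean read length was greater at peak lactation, by a median of 0.777 nt. On common tags alone it was greater in 311 of 344 families (90.4%), by a median of 0.523 nt. Among groups of overlapping peak lactation tags that held no peak-only tag, it was greater in 296 of 512 (57.8%), by a median of 0.0336 nt. The families were taken because they hold peak-only tags, most of which were long, and these groups hold none. The part of this choice in the contrast was not tested.

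**Figure D5:**
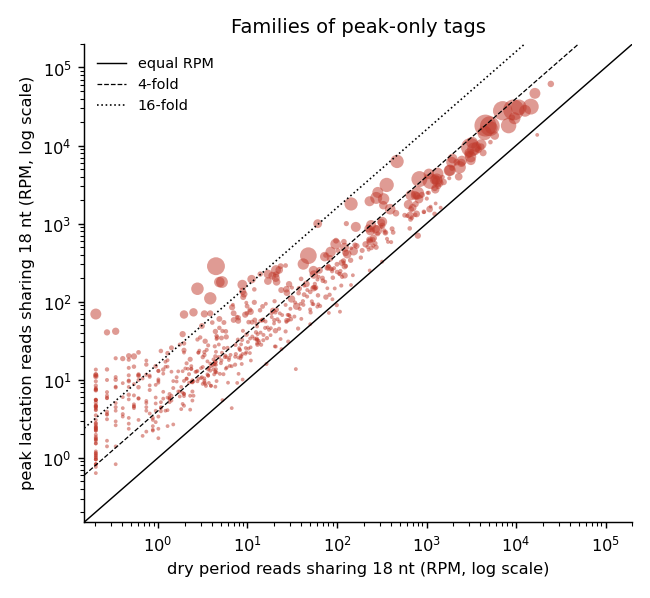
Each of the 682 families of peak-only tags is a point, with area by member reads, placed by the RPM of all dry period reads (x, log scale, counts under 3 drawn at 3 reads) and all peak lactation reads (y, log scale) that share 18 nt with it, peak-only tags included. Of these families 314 lie above the 4-fold line and 77 above the 16-fold line.

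The families differed in composition along this ratio, which includes the reads of the chosen tags. In the 77 families over 16-fold, 592 tags with 13106 reads had a median length of 22 nt and a mean GC content of 50.4% ± 11.4 (SD over tags), and 41.6% had 24 nt or more. In the 237 families between 4-fold and 16-fold, 1406 tags had a median of 25 nt and a GC content of 62.9% ± 21.3. In the 368 families up to 4-fold, 3184 tags had a median of 27 nt, a GC content of 64.4% ± 14.4, and 87.8% had 24 nt or more. When the families were split by the ratio of their common tags alone, a choice made after seeing the data, 8 families (178 tags) were over 16-fold, 143 (1409 tags) between 4-fold and 16-fold and 496 (3546 tags) up to 4-fold. Their median lengths were 23, 25 and 27 nt, and their GC contents 50.6% ± 7.07, 58.5% ± 20.2 and 64.7% ± 15.1. The order of length and of mean GC content was the same in both splits, though far fewer families were over 16-fold on common tags. The tags of both splits were chosen for absence from the dry period library, so the second split is not independent of the first. Absence was more frequent among tags of 24 to 33 nt (16%) than of 18 to 23 nt (3.25%). Of the 178 tags in that class, 81, 51 and 26 belonged to families 6, 26 and 42, described below. The values of that class therefore rest mainly on these families. The whole libraries also differed in read length, with longer reads at peak lactation. The part of this difference, and of the choice of tags by absence, in the order was not tested.

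Among families with at least 500 reads, 7 were over 16-fold higher at peak lactation. The families printed here rank 2, 4, 5 and 10 by this ratio and were chosen after their values were seen, as examples and not by rank. Families 36 and 19, at rank 1 and 3, are not printed because their goat origin was in doubt and could not be tested here. Family 19 had 2300 reads at peak lactation against 41, or 507 against 30 on common tags alone. Families 22, 56, 15 and 65, with ratios of 28.8, 18.9, 13.4 and 13.3, were not chosen. Their ratios on common tags alone were 6.13, 14.1, 13.1 and 9.68.
Family 6: aggacttgaaggactacgga
Family 42: tgcaaagacgaccagaacc
Family 26: tgacagcacagaatatggactcttc
Family 16: caacagcaaacagaggatgaactcc

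Family 6 had 81 tags with 2356 reads over 54 nt, led by a 20-nt tag with 151 reads. All reads sharing 18 nt with it numbered 4471 at peak lactation (285 RPM) and 66 in the dry period (4.44 RPM), a ratio of 64.0. On common tags alone the reads were 1285 and 64 and the ratio was 19.0. Family 42 had 26 tags, and 2801 reads at peak lactation against 72 in the dry period gave a ratio of 36.8. Family 26 had 51 tags, with 2804 against 77 reads and a ratio of 34.4. On common tags alone the ratios of families 42 and 26 were 22.7 and 19.8. Families 6, 26 and 42 were each still a group of their own when all peak lactation tags with 10 or more reads were joined. Family 16 fell into a group of 3 families with 221 tags. Whether separate groups are stretches of the same RNA was not tested.

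Family 16 was larger in both libraries, with 28057 reads at peak lactation (1786 RPM) and 2134 in the dry period (144 RPM), a ratio of 12.4. Its ratio on common tags alone was 11.5. Its 45 tags started at 24 positions and ended at 24 positions of a 58-nt stretch. The GC content of the tags averaged 52.0% in family 6, 53.9% in family 42, 42.1% in family 26 and 43.2% in family 16, all below the mean of the set. In families 36, 19, 22, 56 and 65, not printed, it averaged 39.7, 51.4, 43.4, 33.7 and 44.3%. In family 15, also not printed, it averaged 65.8%, above that mean.

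At the low end of the ratio among these larger families stood families 59, 9 and 12. The ratio was 2.06 for family 59, with 101484 and 46548 reads, and 2.16 for family 9, with 495552 and 217219 reads. Family 12, which holds peak tag 1, had 282799 and 122770 reads and a ratio of 2.18. Even these stretches were higher in RPM at peak lactation, by more than 2-fold but less than the median common tag.

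The set held 55 tags with 1138 reads that shared no 18-nt stretch with any dry period tag. They were short, with a median of 20 nt and a range of 18 to 26 nt, and had a GC content of 52.3% ± 9.67. A short tag holds fewer 18-nt stretches that could be shared, so this choice itself favours short tags. They formed 29 families. The 5 with the most reads had 109, 74, 72, 54 and 46 reads and lengths of 19, 19, 18, 19 and 20 nt. The tags with 109, 72, 54 and 46 reads overlapped each other in family 36, which had 22 tags with 824 reads. All reads sharing 18 nt with family 36 numbered 1091 at peak lactation and 1 in the dry period. Of the 1091 reads, 824 are of tags chosen for their absence, and on common tags alone the family had 4 reads against 1. The letters of these tags are not printed, and whether they are goat RNA or RNA of another organism in the sample was not tested. In the dry period, 20 tags (4.49%) had no stretch in a peak lactation tag.

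The dry period families were fewer and led by let-7. The family with the most reads held 45 tags with 729 reads around let-7b, and reads sharing 18 nt with it numbered 56312 at peak lactation against 732457 in the dry period, a log2 ratio of -3.78. The third, around let-7a, let-7b and let-7c, held 29 tags with 435 reads and had a log2 ratio of -3.03. Of the 248 families 230 were over 2-fold lower at peak lactation and 3 over 2-fold higher. On common tags alone 192 of 220 were over 2-fold lower and 4 over 2-fold higher, and the median log2 ratio was -2.36 instead of -2.89. The second family, with dry tags 2 and 4, was higher at peak lactation, with 34021 reads at peak lactation against 12034 in the dry period.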

How the data were processed

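Small RNA of mammary gland, pooled from 3 goats per stage, was sequenced on the Solexa platform. Before deposit the authors filtered by base quality and adaptor content, dropped poly(A) and inserts under 18 nt, and collapsed identical sequences. The deposited values are each tag and its count of clean reads, neither normalized nor aligned. CASAVA is named in the submitters' processing notes.

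Tags, lengths, end bases and overlaps were computed from these counts in Python 3.11.15 with scipy 1.17.1 and matplotlib 3.10.9. RPM is the count divided by the clean reads times 1000000. Tags sharing an identical stretch of 18 nt were joined into families. Matches to 440 listed miRNA sequences used the sequences of the supplementary tables, not their counts. Floors were 3 reads per library, except in ratios on common tags, which had no floor. Intervals were 95% Wilson intervals. The functions were tested on simulated data.

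Printed tags were the 10 leading peak lactation tags, the 5 leading dry period tags, the leading tags of the 5 largest families, leading miRNA matches, and families named as chosen later. The tags and lists were chosen with earlier results of these data known. No genome, transcript or protein sequence was used, so tags were not assigned to genes, and the planned searches of goat proteins and of lists of milk, immune and structural genes were not run.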

Additional observations from a re-analysis of the deposited data

How the results depend on the processing

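The number of tags, 5182 with 10 reads, was 1648 with a minimum of 20 reads, 317 with 50 reads, 2411 with 1 RPM, 12885 when up to 2 dry period reads were allowed, and 470 when absence was judged on the first 18 nt. Their share of clean reads (0.715%) was then 0.421, 0.176, 0.505, 1.93 and 0.0573%. Restriction to 18 to 23 nt, chosen after seeing the data, left 1253 tags with 0.149% of the reads. Tags of 24 nt or more (75.8%) were 80.6% with 20 reads, 78.9% with 1 RPM, 67.9% with up to 2 dry period reads and 79.2% by reads. T was first (17.4%) in 16.2% with 20 reads, 18.7% with up to 2 dry period reads and 19.6% at 18 to 23 nt. Mean GC content (62.4%) was 63.9, 63.2 and 61.4% for 20 reads, 1 RPM and up to 2 dry period reads, 58.3% at 18 to 23 nt and 63.0% by reads. Overlap within the set (93.6%) was 92.0% with 20 reads, 95.3% with up to 2 dry period reads, 68.2% at 18 to 23 nt, 96.0% by reads, 96.2% with a 15-nt stretch and 85.6% with a 20-nt stretch. Overlap with common tags (98.6%) was 99.0% with 20 reads, 95.2% at 18 to 23 nt, 99.3% with 15 nt and 92.0% with 20 nt. Matches to miRNAs (0.154%) were 0.336% by reads and 0.714% at any offset. The cause of these shifts was not tested, beyond fewer or more tags entering. The other 6 alternatives stayed within the counting interval of the value. The search of goat proteins and its alternatives were not run, because no protein sequence was used here. No paired analysis was possible because each stage had 1 library. At this depth a tag under 3 reads (0.191 RPM at peak lactation, 0.202 RPM in the dry period) cannot be told from an absent tag.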
